A study of Anser cygnoides with 4 samples.

Results

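The kinesin family genes of the goose were examined as all gene symbols that consist of KIF, a number and an optional letter. This rule found 37 members among the 25487 genes of the count tables. The study sequenced single cells from the leg muscle of female Zhedong White goose embryos, with 1 droplet library for each of 4 ages, called E13, E15, E18 and E23 after the embryonic day. Each library was a pool of embryos, 3 by the labels and 4 by the methods of the study, from which satellite cells had been enriched by plating, frozen and thawed. No group was treated or mutated. Counts were summed in cell classes set by unique molecular identifiers (UMIs, each marking 1 captured RNA molecule). Cycling PAX7 cells had at least 2 UMIs of PAX7, the satellite cell factor, none of MYOG, and at least 3 of the 6 cycle genes MKI67, TOP2A, CDK1, CCNB2, PLK1 and TPX2. Myocytes had at least 2 UMIs of MYOG, the differentiation factor, and at least 10 of ACTC1, cardiac actin. Fibro-adipogenic progenitors (FAPs), the stromal cells of muscle, had at least 5 UMIs each of DCN and COL6A3 and none of PAX7 or MYOG. Non-cycling PAX7 cells met the PAX7 and MYOG limits and had none of the 6 cycle genes. No kinesin took part in these gates.

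Kinesins are motor proteins that use ATP to move along microtubules or to take them apart. One set builds the spindle, moves chromosomes and cuts the dividing cell apart, and its genes are switched on before mitosis. Another set carries vesicles, mitochondria, nuclei and the building blocks of cilia, and is needed in cells that no longer divide, of which long muscle cells with many nuclei are an example. The roles given below are known from mammals.

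The libraries held 11261 to 16077 barcodes and 128674910 to 155367545 UMIs, and 44361 cells were kept in all, of which 9960 to 13831 came from each library. Across the libraries 193 barcodes occurred in 2 libraries and 1 in 3. In stage order there were 465, 579, 968 and 1289 cycling PAX7 cells, and each library held 802 to 3886 myocytes, 576 to 1818 FAPs and 1161 to 1593 non-cycling PAX7 cells. Markers outside the gates fitted the names: 8 muscle genes summed to 5915 to 10021 CPM, the UMIs of a gene per 1000000 UMIs of the class, in myocytes and to 22.0 to 271 CPM in the other classes, and 5 FAP genes to 3296 to 5150 CPM in FAPs and 68.9 to 1099 CPM elsewhere. The 5 satellite genes summed to 1300.4 to 3432 CPM in non-cycling PAX7 cells, 632 to 1366 CPM in myocytes and 12.7 to 34.4 CPM in FAPs. The E13 library stood apart in 4 stress genes, which summed to 1417 to 4986 CPM in its classes, against 70.3 to 204 CPM in those of the other stages. All tests below were edgeR quasi-likelihood tests on summed counts with the library as a block and Benjamini-Hochberg adjustment over all genes tested, and a gene was called at an adjusted p under 0.05. The 4 libraries that served as replicates of a class were different stages, so the spread between them holds stage and library together.

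By role, 10 members were mitotic, 15 were transport kinesins and 12 were other kinesins. These others were kinesins of cilia, centrioles or signalling, the depolymerases KIF2A and KIF2B, and kinesins of uncertain role. The mitotic KIF22 was not analysed here. KIF2B and KIF19 were at 0 UMIs in cycling and non-cycling PAX7 cells and in myocytes of all libraries, and KIF5A and KIF12 did not exceed 0.258 CPM in any of the 4 classes, so these 4 members had too few counts for any test. The other 33 were tested in the comparisons of the 4 classes. The 3′ counting does not measure length, and levels are compared between cells for the same gene, not between genes. Values in groups of 4 follow the order E13, E15, E18 and E23.

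The first comparison asked which kinesins went with division in satellite cells. All 10 mitotic kinesins were higher in cycling than in non-cycling PAX7 cells, by a median of 4.63 on the log2 scale, and the libraries of the classes did not overlap for any of them. The cycle genes of the gate rise in dividing cells as these kinesins do, so the direction is not independent of the gate. Of all 14031 genes tested, 5.49% were called higher and 3.45% lower, 8.94% in either direction, 4.64% lay above without overlap, and the median log2 fold change was -0.08. Among the motors that build the spindle, KIF11, which slides antiparallel microtubules apart, had 61.8, 93.3, 119 and 113 CPM in cycling cells, against 2.32, 4.41, 4.73 and 3.32 CPM in non-cycling cells (log2 fold change 4.67 ± 0.33 (SE), adjusted p = 3.85e-06). KIF15, a second motor that keeps the spindle bipolar, had 144, 175, 152 and 187 CPM in cycling cells and 2.49, 4.31, 3.75 and 5.84 CPM in non-cycling cells (log2 fold change 5.29 ± 0.31 (SE), adjusted p = 2.22e-06). Every cycling sum of either gene lay at least 10 times above every non-cycling sum.

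Among the motors at chromosomes, KIF4A, which binds chromosome arms and the central spindle, had 126, 192, 216 and 196 CPM in cycling PAX7 cells, against 4.30, 2.40, 2.66 and 5.16 CPM in non-cycling PAX7 cells (log2 fold change 5.53 ± 0.37 (SE), adjusted p = 2.93e-06). KIF18A, which dampens chromosome movements at the kinetochore, had 45.7, 55.0, 66.2 and 58.6 CPM in cycling cells, against 3.70, 3.45, 2.66 and 3.56 CPM in non-cycling cells (log2 fold change 4.00 ± 0.34 (SE), adjusted p = 1.24e-05). KIF2C, a depolymerase that corrects faulty kinetochore attachments, had 10.9, 60.5, 63.4 and 40.3 CPM in cycling cells, against 1.03, 0.287, 0.690 and 0.922 CPM in non-cycling cells (log2 fold change 5.58 ± 0.56 (SE), adjusted p = 4.35e-05). The E13 value of KIF2C in cycling cells was the lowest of its 4 by a wide margin, below the values of the later stages by over 3 times, a gap that KIF4A and KIF18A did not show. KIF18B, a regulator of astral microtubules, was close to the limit of detection with 1.46, 4.15, 1.64 and 4.89 CPM in cycling cells, against 0.344, 0.192, 0.197 and 0.184 CPM in non-cycling cells (log2 fold change 3.55 ± 0.56 (SE), adjusted p = 0.00160).

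The 4 motors of the midzone and of cytokinesis showed the same separation. KIF23, which forms centralspindlin with RACGAP1, had 40.2, 67.8, 81.4 and 94.9 CPM in cycling PAX7 cells, against 1.81, 1.72, 3.45 and 4.36 CPM in non-cycling PAX7 cells (log2 fold change 4.58 ± 0.35 (SE), adjusted p = 5.51e-06). KIF20A, which brings the chromosomal passenger complex to the midzone, had 35.0, 40.0, 59.8 and 63.5 CPM in cycling cells, against 0.860, 0.575, 0.591 and 1.54 CPM in non-cycling cells (log2 fold change 5.69 ± 0.42 (SE), adjusted p = 4.87e-06), the largest change of the family in this comparison. KIF20B, which acts in the completion of cytokinesis, had 123, 227, 330.3 and 226 CPM in cycling cells, against 10.4, 6.52, 8.48 and 16.2 CPM in non-cycling cells (log2 fold change 4.32 ± 0.37 (SE), adjusted p = 1.13e-05). Its E13 sum was the lowest of the 4 in cycling cells, as was that of every other mitotic kinesin. The classes were far apart at each stage. KIF14, a partner of citron kinase at the midbody, had 14.6, 20.7, 22.5 and 24.1 CPM in cycling cells, against 0.946, 0.958, 0.394 and 0.983 CPM in non-cycling cells (log2 fold change 4.56 ± 0.35 (SE), adjusted p = 5.58e-06).

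**Figure D1:**
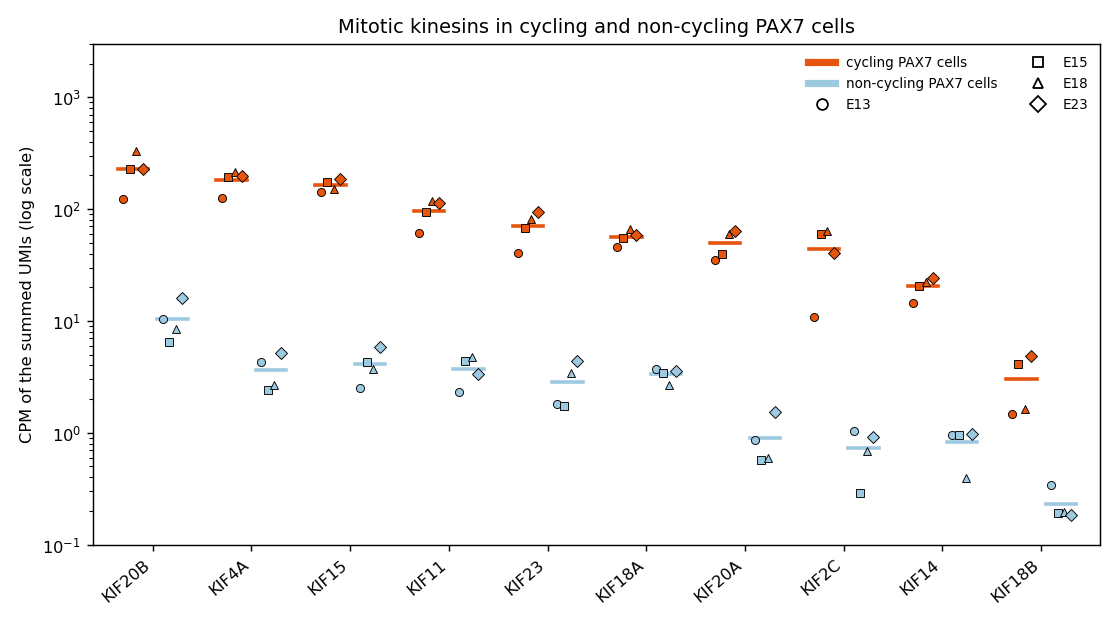
CPM on a log scale for the 10 mitotic kinesins in cycling (orange) and non-cycling (blue) PAX7 cells, with 1 symbol for each library and a bar at the mean of the 4 libraries. No cycling sum of a gene reaches down to its non-cycling sums, and the circle of KIF2C at E13, at 10.9 CPM, lies below its other cycling sums.

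The partners of the mitotic kinesins, taken from lists outside the symbol rule, were also higher in cycling cells. All 7 spindle genes tested were called higher in cycling PAX7 cells, among them RACGAP1 (6.66 on the log2 scale, adjusted p = 5.26e-06) and ECT2, its binding partner that activates RhoA (6.58, adjusted p = 3.41e-06). Of the kinesins under other names, CENPE, a kinetochore motor, differed by 5.79 and KIFC1, a minus-end motor of the spindle, by 3.84 on the log2 scale, while KIFC3 was not called.

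Of the 14 transport kinesins tested, which carry cargo in dividing and resting cells alike, none was called higher and 1 was called lower in cycling than in non-cycling PAX7 cells, with a median log2 fold change of -0.21. At an unadjusted p under 0.05 there were 2, and DESeq2 called 1, with 1 left without an adjusted p. KIF13B, which carries vesicles and scaffold proteins, had 16.2, 18.9, 20.1 and 25.9 CPM in cycling cells, against 24.9, 35.6, 36.9 and 44.7 CPM in non-cycling cells (log2 fold change -0.85 ± 0.16 (SE), adjusted p = 0.00668). It was lower in cycling cells of each library, although the ranges of the classes overlapped, and the call was lost without the E15 library (adjusted p = 0.0831) and without the E18 library (adjusted p = 0.0756). KIF5B, the widely expressed heavy chain of conventional kinesin, had 166, 161, 153 and 216 CPM in cycling cells, against 153, 167, 153 and 246 CPM in non-cycling cells, and was not called (-0.08 (95% interval -0.41 to 0.26) on the log2 scale). None of 14 genes of the cargo side was called by edgeR, with 5 at an unadjusted p under 0.05.

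Among the 9 other kinesins tested, 2 were called higher in cycling PAX7 cells and none lower. The depolymerase KIF2A, which was kept in this group, was not called, with a mean of 85.8 CPM in cycling and 72.1 CPM in non-cycling cells. KIF24, which acts at centrioles and restrains cilium growth, had 9.24, 7.14, 7.87 and 17.9 CPM in cycling cells, against 2.41, 2.01, 2.76 and 4.73 CPM in non-cycling cells (log2 fold change 1.75 ± 0.34 (SE), adjusted p = 0.00692), with no overlap. Without the E18 library its adjusted p was 0.0590. KIF26A, an atypical kinesin that in mice restrains growth factor signalling in gut neurons, had 22.9, 12.2, 38.6 and 82.0 CPM in cycling cells, against 11.3, 8.05, 8.18 and 25.9 CPM in non-cycling cells (log2 fold change 1.38 ± 0.30 (SE), adjusted p = 0.0146). It was higher in cycling cells of each library, but the classes overlapped, and the call was lost without the E18 (adjusted p = 0.0629) or the E23 library (adjusted p = 0.101). Beside these counts, the 8 muscle markers summed to 28.8 to 75.8 CPM in cycling and 111 to 271 CPM in non-cycling PAX7 cells, with 4 of 8 called lower and none higher in cycling cells, and median UMIs per cell were 13099 to 15212 in cycling and 7968 to 10003 in non-cycling cells. Their part in the kinesin differences was not tested. In cells thinned to 4000 UMIs each 12 kinesins were called higher and none lower, so that KIF13B was no longer called. For that fit the cycle genes of the gate were counted after thinning, so its classes did not hold the same cells.

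Single cells were also compared at 1 depth, after thinning to 4000 UMIs and leaving out shallower cells, of which there were 0 to 10 in the cycling and 43 to 139 in the non-cycling PAX7 class of a library. Cycling PAX7 cells had UMIs of 1.93, 2.42, 2.73 and 2.70 mitotic kinesins on average, against 0.101, 0.0952, 0.0927 and 0.154 in non-cycling PAX7 cells. KIF4A was found in 39.1 to 50.3% of cycling cells and in 0.734 to 1.70% of non-cycling cells (unthinned 71.2 to 80.5% and 1.92 to 4.83%), and the share was higher in cycling cells for all 10 mitotic kinesins in every library. In 12.7 to 18.7% of cycling PAX7 cells no mitotic kinesin was detected at this depth, which does not show that it was absent. For the transport kinesins the means were 2.06, 1.71, 1.51 and 2.36 members in cycling cells and 2.02, 1.82, 1.64 and 2.53 members in non-cycling cells. The 667 to 1007 PAX7 cells of a library with 1 or 2 of the 6 genes belonged to neither class, and their mitotic kinesins summed to 56.8 to 115 CPM, against 603 to 1113 CPM in cycling and 24.8 to 42.0 CPM in non-cycling PAX7 cells.

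FAPs were split by the same 6 genes to ask whether the kinesins that go with the cycle are the same in another cell type. Here too the direction for the mitotic kinesins is not independent of the gate. All 10 mitotic kinesins were higher in cycling than in non-cycling FAPs, by 3.49 to 5.52 on the log2 scale, with no overlap of the libraries, where 4.83% of 13151 genes were called higher and 1.32% lower, 6.14% in either direction, and 4.38% lay above without overlap. KIF20A had 45.9, 35.5, 49.8 and 61.3 CPM in cycling FAPs, against 0.750, 0.417, 1.87 and 1.31 CPM in non-cycling FAPs (log2 fold change 5.52 ± 0.24 (SE), adjusted p = 1.72e-08). KIF11 had 56.6, 47.5, 75.1 and 96.8 CPM in cycling FAPs, against 2.25, 1.67, 0.468 and 1.48 CPM in non-cycling FAPs (log2 fold change 5.27 ± 0.31 (SE), adjusted p = 1.86e-07). KIF23 had 50.7, 46.1, 66.0 and 80.5 CPM in cycling FAPs, against 1.50, 1.67, 1.40 and 2.46 CPM in non-cycling FAPs (log2 fold change 5.02 ± 0.20 (SE), adjusted p = 1.35e-08). For each of these 3 genes the lowest sum of cycling FAPs was over 10 times the highest of non-cycling FAPs. The non-cycling values rest on few counts: all non-cycling FAPs, 150 to 540 cells in a library, held 18 UMIs of KIF20A, 29 of KIF11 and 32 of KIF23. KIF4A had 128, 133, 157 and 164 CPM in cycling FAPs, against 3.60, 2.50, 4.68 and 5.26 CPM in non-cycling FAPs (log2 fold change 5.11 ± 0.24 (SE), adjusted p = 3.41e-08). KIF15 had 105, 106, 114 and 143 CPM in cycling FAPs, against 3.15, 1.67, 3.74 and 5.42 CPM in non-cycling FAPs (log2 fold change 4.96 ± 0.18 (SE), adjusted p = 5.65e-09). KIF2C had 25.8, 45.0, 51.8 and 40.7 CPM in cycling FAPs, against 2.10, 0.417, 0 and 1.81 CPM in non-cycling FAPs (log2 fold change 4.60 ± 0.57 (SE), adjusted p = 0.000157). In these 3 as well, every cycling sum lay far above the non-cycling ones. KIF14 had 11.8, 11.1, 13.7 and 19.4 CPM in cycling FAPs, against 0.750, 0.833, 0.468 and 0.329 CPM in non-cycling FAPs (log2 fold change 4.52 ± 0.34 (SE), adjusted p = 1.63e-06). KIF18B had 2.89, 5.53, 4.79 and 5.86 CPM in cycling FAPs, against 0.150, 0.417, 0 and 0.329 CPM in non-cycling FAPs (log2 fold change 4.28 ± 0.51 (SE), adjusted p = 0.000110). With 222 UMIs in all cycling FAPs but 4 in all non-cycling FAPs, the size of the KIF18B change cannot be read. When the processing was varied, KIF18B lost this call in 1 setting. KIF24 was again called higher, with 8.06, 5.53, 6.18 and 16.3 CPM in cycling FAPs and 1.80, 1.25, 1.40 and 4.93 CPM in non-cycling FAPs (log2 fold change 1.87 ± 0.18 (SE), adjusted p = 1.32e-05), a gene named here after its values were seen. None of the 12 transport kinesins tested was called by edgeR, none had an unadjusted p under 0.05, and DESeq2 called none, with 2 left without an adjusted p. Median UMIs per cell were 18225 to 22285 in cycling and 11931.5 to 14449 in non-cycling FAPs. After thinning to 4000 UMIs, cycling FAPs had UMIs of 1.82, 1.73, 2.08 and 2.37 mitotic kinesins on average, against 0.106, 0.0559, 0.0667 and 0.159 in non-cycling FAPs.

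The test of the difference between the cell types called none of 31 kinesins in edgeR, where 0.0076% of 13151 genes were called, in the lower direction. At an unadjusted p under 0.05 there were 3, and DESeq2 called none, with 3 left without an adjusted p. For KIF11 the cycling difference in FAPs minus that in PAX7 cells was 0.61 (95% interval -0.31 to 1.53), and for KIF2C it was -1.04 (95% interval -2.95 to 0.88). The data leave room for differences between the cell types anywhere within these intervals. In simulated sums this test recovered 41 of 100 genes changed by 1 and 75 of 100 changed by 2 on the log2 scale. Recovery of the kinesins themselves was not tested. In all non-cycling FAPs the mitotic members held from 4 UMIs (KIF18B) to 165 UMIs (KIF20B). The narrowest interval of a mitotic member was that of KIF15, -0.34 (95% interval -0.86 to 0.18). The 3 at an unadjusted p under 0.05, named after their values were seen, were KIF26A with -0.85 (95% interval -1.59 to -0.12), KIF13B with 0.57 (95% interval 0.11 to 1.03) and KIF1B, a carrier of mitochondria and vesicles, with 0.30 (95% interval 0.01 to 0.58).

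Within the cycle, cycling PAX7 cells were ranked in their library by the share of mitosis genes among the UMIs of 11 mitosis and 14 replication genes, none of them a kinesin or a gene of the gate. The top 25% (late-cycle) and the bottom 25% (early-cycle) held 116, 144, 241 and 321 cells each. The classes are ranges of a score whose limits differed between libraries. The late limit lay at a mitosis share of 35.3, 55.0, 66.7 and 50.0%, with 72, 50, 165 and 122 cells within 5 percentage points of it, and the early limit at 14.0, 11.7, 24.4 and 11.1%, with 91, 104, 89 and 254 cells within 5 points. All 9 mitotic kinesins with enough counts were called higher in late-cycle cells, where 7.68% of 10371 genes were called higher and 7.86% lower. Their log2 fold changes ran from 0.72 to 3.42. The mitosis genes that ranked the cells peak together with these kinesins in dividing cells, so the direction is not independent of the ranking. When the processing was varied, KIF15 lost its call in 3 settings, KIF23 in 2 and KIF2C in 1. Of the markers tested, the muscle genes TNNT3 (1.42) and TNNC2 (1.37) were called higher in late-cycle cells, and the FAP gene COL1A2 (-0.36), the stress gene HMOX1 (-0.65) and the FAP gate genes DCN (-0.39) and COL6A3 (-0.90 on the log2 scale) lower. The 8 muscle markers summed to 28.2 to 113 CPM in late-cycle cells and 25.8 to 67.1 CPM in early-cycle cells, and the 5 FAP markers to 469 to 669 CPM in late-cycle cells and 535 to 930.5 CPM in early-cycle cells. Their part in the kinesin differences was not tested. In either direction 15.5% of genes were called, and 2.89% lay above without overlap.

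KIF20B differed most, with 236, 557, 662 and 521 CPM in late-cycle cells and 38.1, 32.3, 61.7 and 51.6 CPM in early-cycle cells (log2 fold change 3.42 ± 0.16 (SE), adjusted p = 3.88e-07). KIF20A had 71.8, 90.8, 103 and 130.3 CPM in late-cycle cells and 12.5, 9.44, 17.2 and 13.2 CPM in early-cycle cells (log2 fold change 2.95 ± 0.15 (SE), adjusted p = 7.14e-07). KIF14 had 23.7, 31.2, 36.9 and 43.0 CPM in late-cycle cells and 5.91, 5.46, 7.05 and 4.93 CPM in early-cycle cells (log2 fold change 2.62 ± 0.19 (SE), adjusted p = 8.17e-06). In none of these 3 did the classes overlap. KIF11 had 92.0, 175, 195 and 206 CPM in late-cycle cells and 32.8, 20.4, 51.0 and 32.5 CPM in early-cycle cells (log2 fold change 2.32 ± 0.19 (SE), adjusted p = 2.02e-05). KIF2C had 23.0, 96.8, 109 and 73.6 CPM in late-cycle cells and 3.28, 24.3, 27.1 and 11.0 CPM in early-cycle cells (log2 fold change 2.28 ± 0.15 (SE), adjusted p = 3.33e-06). Of all 9 members KIF2C alone overlapped between the classes, because its late-cycle sum at E13 lay below 2 early-cycle sums of other stages. KIF18A had 76.7, 97.7, 105 and 108 CPM in late-cycle cells and 23.0, 17.4, 33.0 and 19.5 CPM in early-cycle cells (log2 fold change 2.10 ± 0.15 (SE), adjusted p = 7.70e-06). KIF4A had 170.1, 306, 326 and 319 CPM in late-cycle cells and 65.7, 82.0, 103 and 70.5 CPM in early-cycle cells (log2 fold change 1.83 ± 0.11 (SE), adjusted p = 2.34e-06). KIF23 had 46.0, 98.2, 111 and 139 CPM in late-cycle cells and 15.8, 28.3, 36.1 and 37.0 CPM in early-cycle cells (log2 fold change 1.76 ± 0.10 (SE), adjusted p = 1.82e-06). In these 3 the classes were apart at every stage. KIF15, named after its values were seen, differed least, with 153, 194, 162 and 217 CPM in late-cycle cells and 105, 113, 116 and 109 CPM in early-cycle cells (log2 fold change 0.72 ± 0.09 (SE), adjusted p = 0.000587). Its early-cycle sums were already 105 CPM or more, while its sums in non-cycling PAX7 cells did not exceed 5.84 CPM. KIF18B had too few counts for the test, with 2.09, 6.42, 2.51 and 9.06 CPM in late-cycle cells and 0, 3.97, 0.282 and 2.17 CPM in early-cycle cells.

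**Figure D2:**
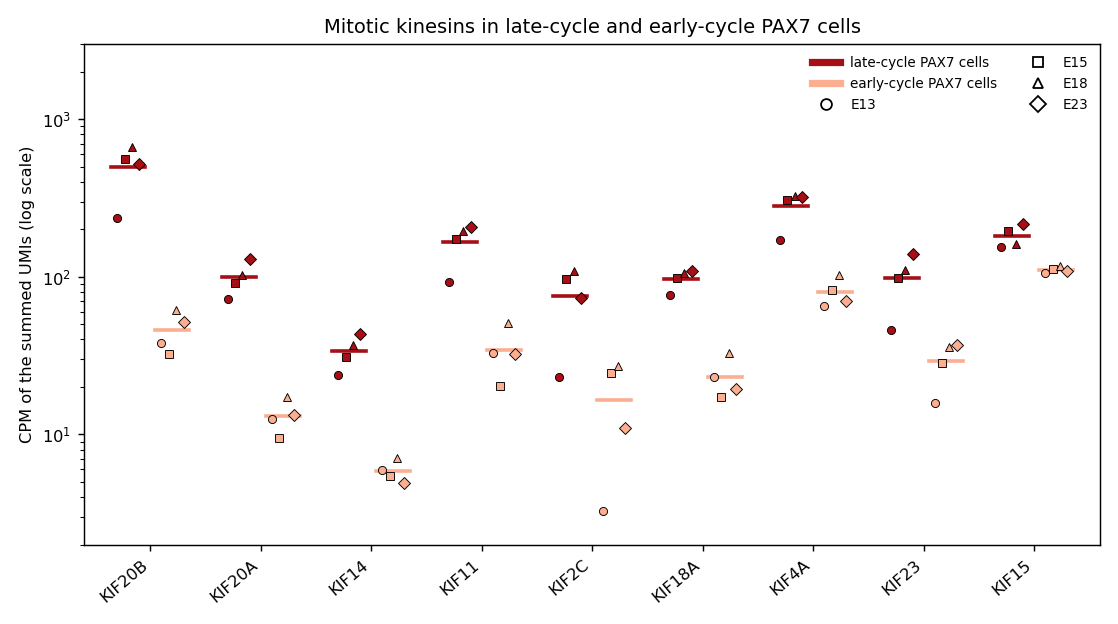
CPM on a log scale for the 9 tested mitotic kinesins in late-cycle (dark red) and early-cycle (pink) PAX7 cells, ordered by log2 fold change, with 1 symbol for each library and a bar at the mean. The gap is widest for KIF20B, at 3.42 on the log2 scale, and narrowest for KIF15, at 0.72.

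A further 5 calls were of members outside the mitotic group, named after their values were seen, and each was lost without at least 1 library. KIF24 was higher in late-cycle cells (log2 fold change 1.01 ± 0.21 (SE), adjusted p = 0.0101), and its adjusted p was 0.0665 without the E23 library. KIF13B (0.68, adjusted p = 0.0146) lost its call without E18 (adjusted p = 0.0623) or E23 (adjusted p = 0.114), and KIF13A, a vesicle carrier (0.39, adjusted p = 0.0399), lost it without E15 (0.138), E18 (0.0852) or E23 (adjusted p = 0.155). KIF26B, which in mice acts in cell adhesion and kidney development, was lower in late-cycle cells (-0.71, adjusted p = 0.0263), but not without E18 (adjusted p = 0.125) or E23 (adjusted p = 0.121). KIF2A, a microtubule depolymerase, was lower (-0.44, adjusted p = 0.0313), but not without E15 (adjusted p = 0.0810) or E18 (adjusted p = 0.122). DESeq2 called none of these 5.

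Myocytes were set against non-cycling PAX7 cells to ask which kinesins change with differentiation, and 15 of 33 were called higher and 11 lower, where 23.2% of 14031 genes were called higher and 26.4% lower, 49.7% in either direction, and 9.76% lay above and 13.7% below without overlap. The comparison has the same non-cycling PAX7 sums as the one of cycling cells and that of FAPs, so the 3 sets of fold changes are not independent. Of the mitotic kinesins 9 of 10 were called higher, KIF18B being the exception. Myocytes were not split by the 6 cycle genes, while the reference cells had none of them. The direction for the mitotic kinesins is therefore not independent of the gates. KIF20A had 4.52, 10.7, 4.29 and 9.80 CPM in myocytes, against 0.860, 0.575, 0.591 and 1.54 CPM in non-cycling PAX7 cells (log2 fold change 3.11 ± 0.42 (SE), adjusted p = 9.76e-05). KIF2C had 3.81, 11.8, 5.69 and 3.27 CPM in myocytes, against 1.03, 0.287, 0.690 and 0.922 CPM in non-cycling PAX7 cells (log2 fold change 3.03 ± 0.57 (SE), adjusted p = 0.000897). KIF4A had 16.4, 35.2, 18.7 and 19.9 CPM in myocytes, against 4.30, 2.40, 2.66 and 5.16 CPM in non-cycling PAX7 cells (log2 fold change 2.68 ± 0.35 (SE), adjusted p = 7.66e-05). In these 3 the myocytes stood above the non-cycling PAX7 cells in each library, without overlap. KIF15 had 16.1, 34.0, 17.3 and 17.5 CPM in myocytes, against 2.49, 4.31, 3.75 and 5.84 CPM in non-cycling PAX7 cells (log2 fold change 2.48 ± 0.29 (SE), adjusted p = 3.28e-05). KIF14 had 3.10, 5.10, 2.63 and 5.72 CPM in myocytes, against 0.946, 0.958, 0.394 and 0.983 CPM in non-cycling PAX7 cells (log2 fold change 2.38 ± 0.35 (SE), adjusted p = 0.000185). Both were again higher in each library, without overlap.

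The myocyte gate does not look at the cycle genes, and few cells carried most of these molecules. The 115, 491, 118 and 39 myocytes with 3 or more of the 6 genes made up 4.86 to 12.6% of the myocytes of a library and held 68.8, 90.4, 81.3 and 75.2% of their mitotic kinesin UMIs. In those cells the 10 mitotic kinesins summed to 906 to 1321 CPM, the 8 muscle markers to 1175 to 1704 CPM and the 5 satellite markers to 1146 to 2672 CPM. In myocytes with none of the 6 genes the same sums were 19.9 to 33.6 CPM, 6599.8 to 12130.5 CPM and 582 to 1205 CPM. The part of doublets in these values was not tested beyond the removal of high doublet scores. Against non-cycling PAX7 cells, the myocytes with none of the 6 genes had no mitotic kinesin called higher by edgeR, also at an unadjusted p under 0.05, and KIF23 (-1.53, adjusted p = 0.00167), KIF20A (-0.96, adjusted p = 0.0324) and KIF18B (-2.86, adjusted p = 0.0494) were called lower, where 27.5% of 13664 genes were called higher and 25.6% lower, 53.1% in either direction. KIF18B had 1 UMI in all these myocytes and 11 in all non-cycling PAX7 cells, too few for its call to be read.

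KIF24 was high in myocytes whether or not these carried cycle genes. It had 9.94, 19.4, 17.3 and 11.3 CPM in myocytes, 11.4, 21.4, 18.9 and 11.0 CPM in myocytes with none of the 6 genes and 2.41, 2.01, 2.76 and 4.73 CPM in non-cycling PAX7 cells. Every myocyte sum lay above every non-cycling PAX7 sum (log2 fold change 2.52 ± 0.34 (SE), adjusted p = 0.000104), and with the myocytes free of cycle genes the difference was 2.75 (adjusted p = 8.14e-05). In cells thinned to 1 depth, 3.21 to 5.90% of myocytes had a UMI of KIF24, against 0.734 to 1.58% of non-cycling PAX7 cells (unthinned 6.47 to 13.3% and 1.60 to 4.52%). KIF26A ran the other way, with 1.10, 0.520, 0.268 and 1.96 CPM in myocytes, against 11.3, 8.05, 8.18 and 25.9 CPM in non-cycling PAX7 cells (log2 fold change -3.75 ± 0.38 (SE), adjusted p = 1.26e-05). KIF26B had 3.23, 5.22, 1.98 and 11.3 CPM in myocytes, against 10.5, 34.0, 63.3 and 48.5 CPM in non-cycling PAX7 cells (log2 fold change -2.73 ± 0.53 (SE), adjusted p = 0.00118). Both atypical kinesins were lower in the myocytes of each library, KIF26A without overlap.

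Of the 14 transport kinesins tested, 4 were called higher and 7 lower in myocytes. None of the 8 largest changes was of a transport kinesin, and those named next were taken after their values were seen. KIF1B had 267, 373, 392 and 577 CPM in myocytes, against 253, 280.1, 156 and 308 CPM in non-cycling PAX7 cells (log2 fold change 0.81 ± 0.19 (SE), adjusted p = 0.00402). KIF16B, a motor of early endosomes, had 189, 90.1, 90.9 and 263 CPM in myocytes, against 82.7, 54.4, 58.8 and 194 CPM in non-cycling PAX7 cells (log2 fold change 0.85 ± 0.16 (SE), adjusted p = 0.000776). Both were higher in the myocytes of each library, with overlap between stages, and both stayed called in myocytes without cycle genes (1.01 for KIF1B and 0.99 for KIF16B). KIF1C, a carrier of vesicles and mRNA, and KIF5C, a neuronal heavy chain, were called higher. KIF1C had 0.710, 1.21, 1.56 and 3.10 CPM in myocytes, against 0.258, 0.671, 0.789 and 1.41 CPM in non-cycling PAX7 cells (log2 fold change 1.16 ± 0.32 (SE), adjusted p = 0.0101), and KIF5C had 5.88, 2.30, 2.90 and 2.45 CPM in myocytes, against 3.52, 1.05, 0.789 and 1.84 CPM in non-cycling PAX7 cells (log2 fold change 1.13 ± 0.38 (SE), adjusted p = 0.0285). KIF5C was not called without E15 (adjusted p = 0.0586) or E18 (adjusted p = 0.121).

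The 7 lower transport kinesins included KIF3A, KIF3B, KIF3C and KIF17 of the kinesin-2 group, motors that build cilia and carry vesicles. KIF3C had 6.13, 2.06, 2.20 and 11.1 CPM in myocytes, against 19.3, 6.23, 5.32 and 16.8 CPM in non-cycling PAX7 cells (log2 fold change -1.18 ± 0.27 (SE), adjusted p = 0.00301). KIF3B (-0.43) and KIF3A (-0.29 on the log2 scale) changed less, and the call of KIF3A was lost with any 1 library left out (adjusted p = 0.0655 to 0.513). KIF3B lost it without E15 (adjusted p = 0.0880) or E18 (adjusted p = 0.0545). KIF17 (-1.53), KIF1A (-0.83), KIF21A (-0.65) and KIF21B (-0.90) each lost the call without E15 (adjusted p = 0.0527 for KIF17, 0.216 for KIF1A, 0.152 for KIF21A and 0.224 for KIF21B), KIF1A also without E13 (0.113), KIF21A without E18 (0.311) or E23 (0.0908) and KIF21B without E13 (0.0764) or E18 (adjusted p = 0.324). Among the other kinesins, KIF25 was called higher (1.34, adjusted p = 0.0381), but not without E13 (0.0755), E15 (0.199) or E18 (adjusted p = 0.0984). KIF6, a cilia gene (-1.89), was called lower, but not without E15 (adjusted p = 0.119), and KIF7, which acts in Hedgehog signalling at cilia (-0.43), but not without E18 (0.116) or E23 (adjusted p = 0.146). KIF17 and KIF6 had few counts, with 16 and 13 UMIs in all myocytes, against 42 and 44 in all non-cycling PAX7 cells. Over all roles the count of lower kinesins was 11 with all libraries, 4 without E15, 5 without E18 and 6 without E23. On the cargo side 7 of 14 genes were called higher and 2 lower in myocytes. SYNE1, which anchors nuclei, differed by 3.14 (adjusted p = 1.21e-07), MAP7, which recruits kinesin to microtubules, by 2.55 (adjusted p = 4.35e-05), and the light chain KLC4 by 1.30 (adjusted p = 3.24e-05), while the scaffold MAPK8IP1 was lower (-2.85, adjusted p = 0.000150). MAPK8IP1 had only 15 UMIs in all myocytes and 73 in all non-cycling PAX7 cells. The heavy chain KIF5B itself was not called (0.25 (95% interval -0.09 to 0.59)).

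**Figure D3:**
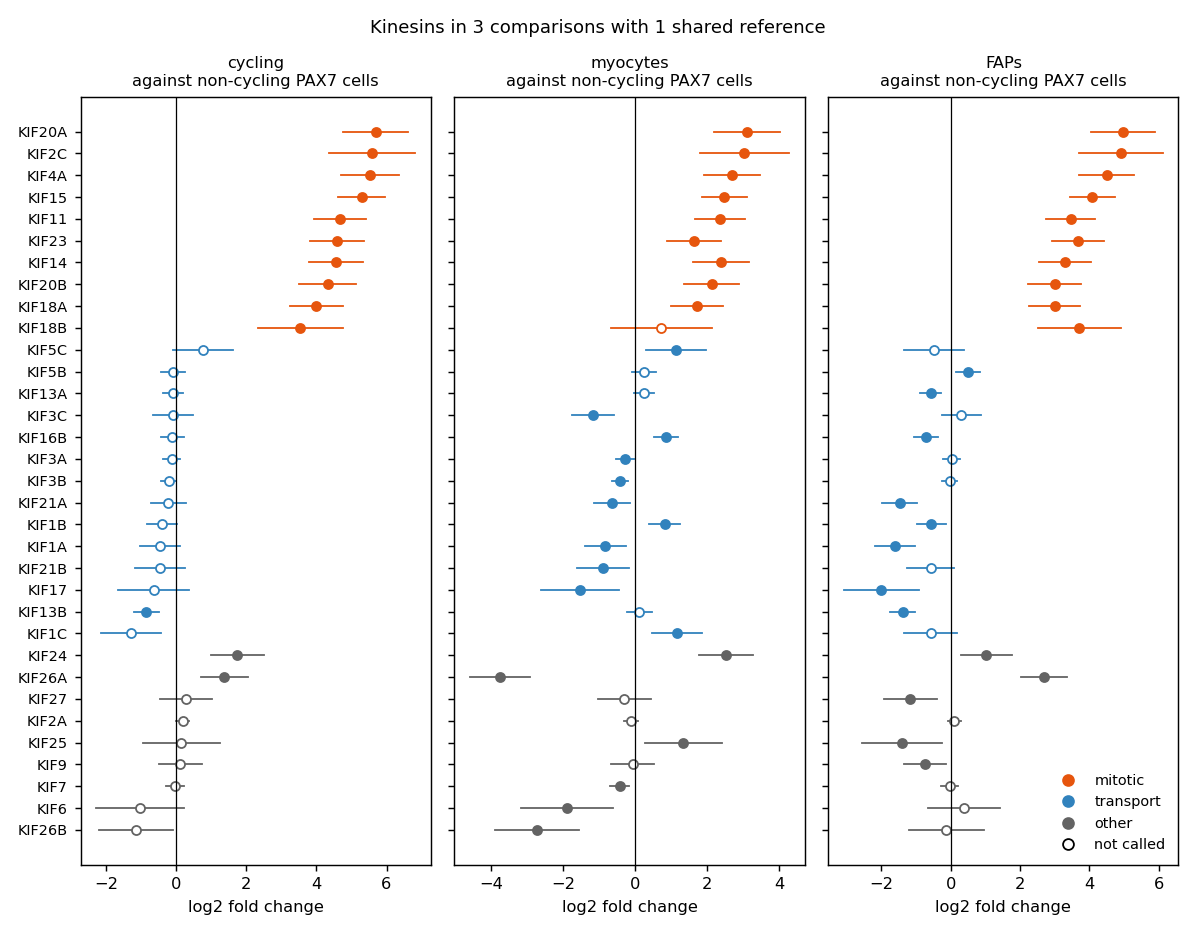
Log2 fold changes with 95% intervals of the 33 tested kinesins in cycling PAX7 cells, myocytes and FAPs, each against the same non-cycling PAX7 cells, with filled points called at an adjusted p under 0.05. The 10 mitotic kinesins (orange) stand to the right in cycling PAX7 cells and FAPs, KIF18B is not called in myocytes, and the transport kinesins (blue) lie on both sides of 0 in myocytes and mostly left of it in FAPs.

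FAPs had 13 of 33 kinesins called higher and 10 lower than non-cycling PAX7 cells, where 26.6% of 14031 genes were called higher and 26.2% lower, 52.8% in either direction, and 10% lay above and 14.3% below without overlap. All 10 mitotic kinesins were higher, by a median of 3.69 on the log2 scale and without overlap. FAPs were not split here by the 6 cycle genes that the reference cells lacked, so this direction is not independent of the gates. KIF20A had 21.5, 16.0, 40.2 and 29.6 CPM in FAPs, against 0.860, 0.575, 0.591 and 1.54 CPM in non-cycling PAX7 cells (log2 fold change 4.96 ± 0.42 (SE), adjusted p = 4.59e-06). KIF4A had 58.7, 59.9, 127 and 80.2 CPM in FAPs, against 4.30, 2.40, 2.66 and 5.16 CPM in non-cycling PAX7 cells (log2 fold change 4.51 ± 0.36 (SE), adjusted p = 3.44e-06). KIF2C had 12.2, 19.9, 41.4 and 19.7 CPM in FAPs, against 1.03, 0.287, 0.690 and 0.922 CPM in non-cycling PAX7 cells (log2 fold change 4.90 ± 0.55 (SE), adjusted p = 3.18e-05). The FAP sums of these 3 were highest at E18. KIF15 had 47.4, 47.6, 92.8 and 71.4 CPM in FAPs, against 2.49, 4.31, 3.75 and 5.84 CPM in non-cycling PAX7 cells (log2 fold change 4.09 ± 0.30 (SE), adjusted p = 1.73e-06). KIF23 had 22.5, 20.6, 53.4 and 39.1 CPM in FAPs, against 1.81, 1.72, 3.45 and 4.36 CPM in non-cycling PAX7 cells (log2 fold change 3.66 ± 0.34 (SE), adjusted p = 9.03e-06). KIF11 had 25.8, 20.7, 60.2 and 45.5 CPM in FAPs, against 2.32, 4.41, 4.73 and 3.32 CPM in non-cycling PAX7 cells (log2 fold change 3.46 ± 0.32 (SE), adjusted p = 8.81e-06). The same stage, E18, was highest in FAPs for these 3. KIF18B (3.71) had 1.30, 3.10, 3.89 and 3.08 CPM in FAPs and KIF14 (3.30 on the log2 scale) had 5.60, 4.84, 11.1 and 9.24 CPM in FAPs, with the non-cycling PAX7 values given above. Median UMIs per cell were also higher in FAPs, at 14576 to 19815, than in non-cycling PAX7 cells, at 7968 to 10003. FAPs with 3 or more of the 6 cycle genes were 35.4, 35.2, 74.0 and 39.1% of all FAPs and held 91.7, 92.7, 98.6 and 92.0% of their mitotic kinesin UMIs. In FAPs with none of the 6 genes no mitotic kinesin was called in edgeR, with 1 at an unadjusted p under 0.05, KIF11 (adjusted p = 0.0709), where 21% of 13410 genes were called higher and 22.7% lower, 43.7% in either direction.

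Outside the mitotic group, KIF26A was the kinesin with the largest difference in FAPs, with 39.9, 49.0, 73.3 and 172 CPM in FAPs, against 11.3, 8.05, 8.18 and 25.9 CPM in non-cycling PAX7 cells (log2 fold change 2.69 ± 0.31 (SE), adjusted p = 3.67e-05). It did not overlap between the classes, stayed higher in FAPs without cycle genes (2.33, adjusted p = 7.16e-05), and had 0.268 to 1.96 CPM in myocytes. KIF5B had 219, 273, 186 and 245 CPM in FAPs, against 153, 167, 153 and 246 CPM in non-cycling PAX7 cells (log2 fold change 0.50 ± 0.15 (SE), adjusted p = 0.0180), with overlap, and lost its call without E13 (adjusted p = 0.0685) or E15 (adjusted p = 0.0862). Of 14 transport kinesins, 7 were called lower in FAPs. KIF13B had 12.8, 11.3, 10.4 and 15.5 CPM in FAPs, against 24.9, 35.6, 36.9 and 44.7 CPM in non-cycling PAX7 cells (log2 fold change -1.38 ± 0.17 (SE), adjusted p = 4.89e-05), without overlap. KIF16B had 40.3, 35.5, 42.2 and 87.1 CPM in FAPs, against 82.7, 54.4, 58.8 and 194 CPM in non-cycling PAX7 cells (log2 fold change -0.71 ± 0.16 (SE), adjusted p = 0.00253). These members were named after their values were seen. Lower in FAPs were also KIF17 (-1.99), KIF1A (-1.59), KIF21A (-1.47), KIF13A (-0.58) and KIF1B (-0.56 on the log2 scale), of which KIF13A lost its call without E18 (adjusted p = 0.0569) or E23 (adjusted p = 0.0524) and KIF1B without E15 (adjusted p = 0.189) or E23 (adjusted p = 0.108). KIF17 was close to the limit of detection, with 17 UMIs in all FAPs and 42 in all non-cycling PAX7 cells. Among the other kinesins, KIF24 was called higher in FAPs (1.02), but not without E13 (0.0684) or E18 (adjusted p = 0.0811). In FAPs without cycle genes the KIF24 difference was -0.14 (adjusted p = 0.819). KIF25 (-1.40), KIF27 (-1.16) and KIF9 (-0.74) were called lower, KIF25 not with any 1 library left out (adjusted p = 0.0657 to 0.147), KIF27 not without E18 (0.105) or E23 (adjusted p = 0.0742), and KIF9 not without E15 (0.218), E18 (0.339) or E23 (adjusted p = 0.113). The count of lower kinesins was 10 with all libraries, 5 without E18 and 4 without E23. On the cargo side 1 of 14 genes was called higher and 6 lower in FAPs, with MAP7 at -0.92, SYNE2, which also anchors nuclei, at -0.65, SYNE1 at -0.57 and KLC4 at -0.57 on the log2 scale.

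**Figure D4:**
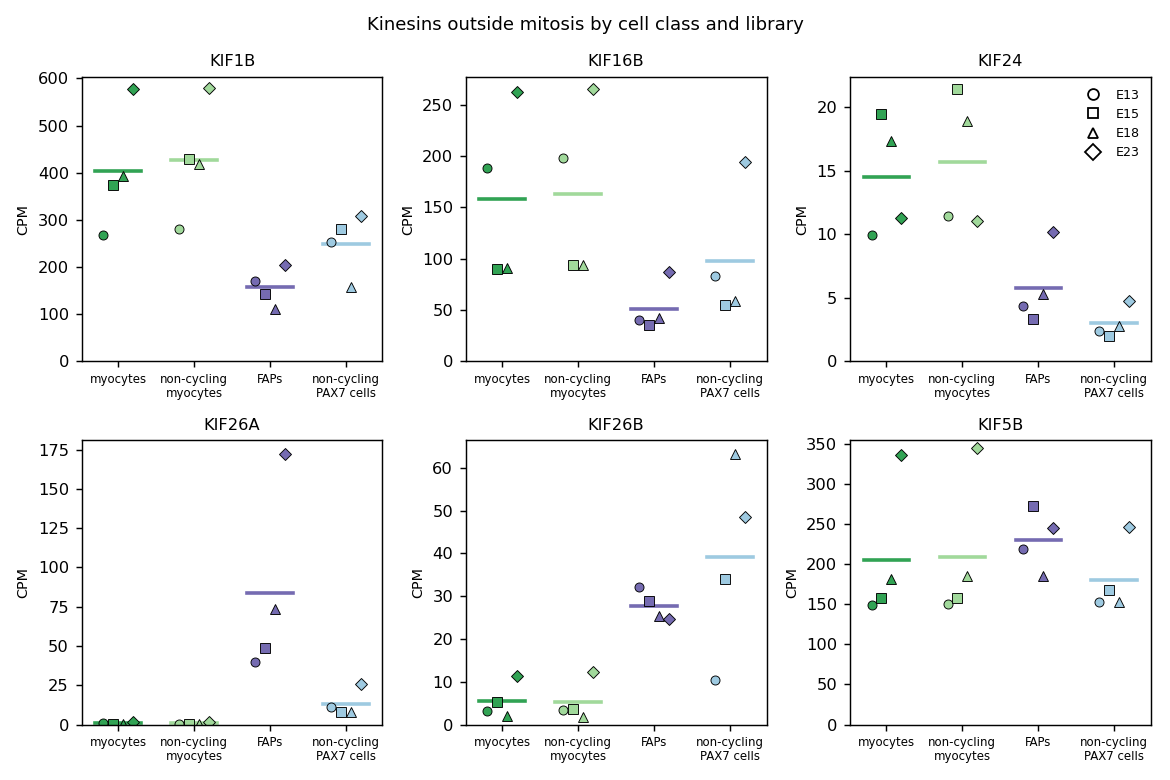
CPM of 6 kinesins in myocytes, myocytes with none of the 6 cycle genes, FAPs and non-cycling PAX7 cells, with 1 symbol for each library and a bar at the mean. KIF24 is high in both sets of myocytes, at 9.94 to 19.4 CPM in all myocytes and 11.0 to 21.4 CPM in those with none of the 6 genes, and KIF26A in FAPs, at 39.9 to 172 CPM, whereas KIF5B overlaps between all classes.

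Across stages there was 1 library each, so no stage was tested, and the values carry counting intervals only. Of the 33 tested kinesins, 7 had their highest level at E23 and 2 at E13 in all 4 classes, and for the other 24 the highest stage differed between classes. The share of all genes with such a pattern was not computed, so these counts do not set the kinesins apart. KIF17 and KIF1C, both among the 7, had few counts, with 16 UMIs of KIF17 in all myocytes and 21 of KIF1C in all cycling PAX7 cells. KIF16B had 82.7, 54.4, 58.8 and 194 CPM in non-cycling PAX7 cells and 189, 90.1, 90.9 and 263 CPM in myocytes, so both classes were highest at E23 and second highest at E13. KIF26A had 39.9, 49.0, 73.3 and 172 CPM in FAPs and 22.9, 12.2, 38.6 and 82.0 CPM in cycling PAX7 cells, highest at E23 in each. KIF21A was counted with the transport kinesins, although it limits microtubule growth. It had 57.9, 11.5, 21.3 and 30.4 CPM in non-cycling PAX7 cells and 19.7, 5.04, 6.13 and 9.61 CPM in FAPs, with its top at E13. KIF1A, a carrier of synaptic vesicle precursors, had 15.0, 4.41, 3.15 and 3.20 CPM in non-cycling PAX7 cells and 5.57, 1.07, 0.749 and 1.21 CPM in FAPs, also with its top at E13. E13 is the library with the high stress genes, whose part in these levels was not tested, and stage and library cannot be told apart.

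**Figure D5:**
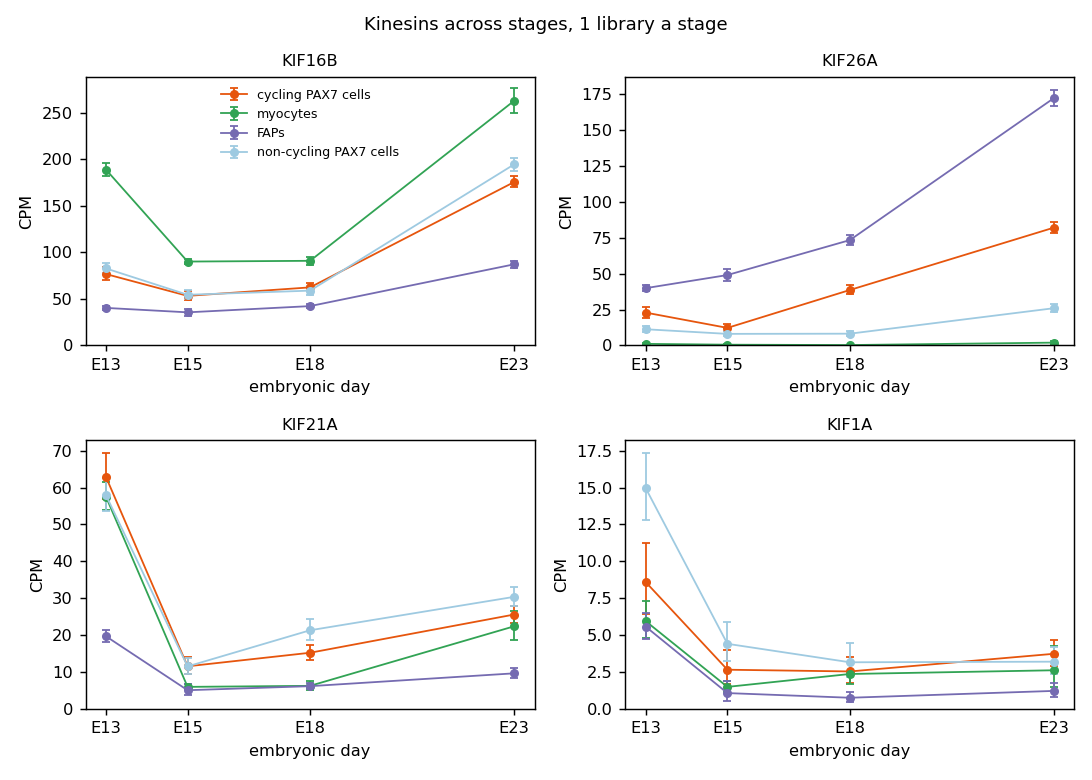
CPM of KIF16B, KIF26A, KIF21A and KIF1A against embryonic day in 4 cell classes, with exact Poisson 95% intervals of the counts from 1 library a stage. KIF16B and KIF26A are highest at E23 in all 4 classes, and KIF21A and KIF1A at E13.

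The summed level of the mitotic kinesins within cycling PAX7 cells was 603, 936, 1113 and 1009 CPM from E13 to E23, and within cycling FAPs 578, 576, 746 and 841 CPM. In all FAPs it was 269, 261, 603 and 415 CPM, with the highest value at E18, where the share of FAPs with 3 or more cycle genes was also highest. KIF1B in myocytes had 267, 373, 392 and 577 CPM, each stage above the one before, a pattern not shared by non-cycling PAX7 cells, where it had 253, 280.1, 156 and 308 CPM and was lowest at E18. KIF26B in non-cycling PAX7 cells had 10.5, 34.0, 63.3 and 48.5 CPM, against 32.2, 28.9, 25.3 and 24.7 CPM in FAPs, which spanned a narrower range.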

How the data were processed

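The unit of the deposited matrices is UMI counts without normalization. The authors ran Cell Ranger to produce them, in release 7.1.0 according to labels and methods but 9.0.0 in the file header. Their reads were aligned with STAR to another goose assembly than that of the RefSeq gene table used here, which matched all 37 symbols, so no coordinates or sequences are given. Cells entered the analysis if they had 300 to 6500 genes, a UMI total of 1000 to 50000 and no more than 20% of it mitochondrial, and the highest scrublet scores (scanpy 1.11.5) were removed up to 0.8% per 1000 barcodes. Counts were summed per library and class and tested with edgeR 4.0.16 (TMM factors, filterByExpr, quasi-likelihood test, library block), with DESeq2 1.42.0 as an alternative. The classes of a library come from 1 pool: their residuals correlated with r from 0.264 to 0.819 within libraries, against -0.635 to 0.285 between libraries. In simulated sums for cycling against non-cycling PAX7 cells over 14031 genes, 84 of 100 genes changed by 2 on the log2 scale and 51 of 100 changed by 1 were recovered, with 10 false calls, and for the difference between cell types over 13151 genes 75 and 41 of 100, with 6 false calls. Recovery was not tested for the kinesins alone. Poisson and binomial intervals are at 95% and cover counting error only. Per-library values are given for mitotic members in cycling PAX7 cells and for up to 8 members with the largest called changes elsewhere, with others said to be named after their values were seen. The members and lists were chosen with earlier results of these data known.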

Additional observations from a re-analysis of the deposited data

How the results depend on the processing

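Each comparison was repeated under other settings, and the counts of kinesins called higher and lower are given where they moved by over 1.5 times. For cycling against non-cycling PAX7 cells, 12 higher and 1 lower became 0 lower with no replicate block, with an absolute log2 fold change of at least 1 or in thinned cells, 2 lower with 2 or more cycle genes and 3 lower in a fit of the 2 classes alone, and leaving out 1 library gave 0 to 1 lower. For myocytes, 15 higher became 6 with no cycle genes, and 11 lower became 3 with no replicate block, 5 at a log2 fold change of at least 1, 5 in thinned cells and 4 in the fit of 2 classes, with 4 to 8 lower when 1 library was left out. For FAPs, 13 higher became 2 with no cycle genes, and 10 lower became 3 with no replicate block and 6 at a log2 fold change of at least 1, with 4 to 9 lower when 1 library was left out. For late-cycle against early-cycle cells, 12 higher became 6 with no replicate block and 7 in thinned cells, and 2 lower became 0 with no replicate block, DESeq2, a log2 fold change of at least 1, thinned cells or 2 or more cycle genes and 1 without doublet removal, with 0 to 2 lower when 1 library was left out. The causes were not tested, except that the settings on cycle genes, on thinning and on fold size change the cells or the rule by construction. In the thinned setting cells under 4000 UMIs were left out, and the cycle genes of the gate were counted after thinning. The counts for cycling against non-cycling FAPs stayed within 1.5 times and those of the difference between cell types at 0.

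Signs reversed among called kinesins in these cases. In myocytes with none of the 6 genes KIF15 was at -0.42, KIF18A at -0.97, KIF20A at -0.96, KIF23 at -1.53, KIF2C at -1.67 and KIF4A at -0.98 on the log2 scale. In FAPs with none of the 6 genes KIF11 was at -0.93, KIF14 at -0.37, KIF20B at -0.071, KIF23 at -0.47 and KIF24 at -0.14. In thinned late-cycle cells KIF13B was at -0.043. The fit of 2 classes and the scaling by UMI totals were added after the data were seen. UMI totals moved the median of all genes from -0.03 to -0.12 in myocytes and from -0.00 to -0.10 in FAPs, with counts within 1.5 times. All 10 mitotic kinesins kept their call under every alternative in cycling against non-cycling PAX7 cells. Members near the limit of detection, such as KIF18B, are limited by depth.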
